A study of Homo sapiens with 6 samples.

Results

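The comparison set KKU-100 cells against HuccT1 cells over 3 pairs of arrays, matched by treatment, and used 3 KKU-100 and 3 HuccT1 arrays, which are all 6 arrays of the series. Both are established human cell lines of biliary cancer. The labels call KKU-100 a poorly differentiated cholangiocarcinoma, and they call HuccT1 a bile duct carcinoma. In each line 1 array measured cells given solvent, 1 measured cells at a low dose and 1 at a high dose of regorafenib, a multikinase inhibitor. The doses are 1 and 10 μM by the labels, which differ from those of the study's text. The cells of all 6 arrays are described as stably transduced and selected with puromycin, without a named construct. The study's methods keep KKU-100 in Dulbecco's modified Eagle's medium and HuccT1 in Roswell Park Memorial Institute medium, so that the line and its medium cannot be told apart. Nothing in the labels says that the arrays came from separate cultures. Each p-value sets the line difference against its spread over the 3 pairs, by a test that also borrows from the spread of other probe sets. The pairs differ in treatment, so that their spread holds any line-specific response to regorafenib and may otherwise be technical.

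Cholangiocytes, the epithelial cells that line the bile ducts, are known by simple keratins and by the adhesion molecule EPCAM, and they hold together through adherens junctions, tight junctions and desmosomes. Carcinoma cells can give up part of this programme in the epithelial-mesenchymal transition, in which repressors such as ZEB1, SNAI1 and SNAI2 act on junction genes. Tumour cells also differ in what they secrete, in the receptors they carry and in the state of stress and growth programmes, which include interferon signalling, the oxidative stress response through NRF2 and the p53 response.

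The values are deposited signal intensities of an Affymetrix array, one per probe set, and each gene was followed through 1 probe set, the strongest on average over the 6 arrays. Other probe sets of a gene could give a smaller difference, and not all of these are named. The median signal of an array lay between 28.8 and 29.3, and a signal below this level is low on these arrays. Differences are KKU-100 minus HuccT1 on the log2 scale, as the mean of the 3 pairs. They were tested with limma with treatment as a block and Benjamini-Hochberg adjustment over all probe sets that passed a level filter. The standard error (SE) given is the moderated one of limma, which borrows from the spread of other probe sets and is not that of the 3 pairs alone. A gene was called where the adjusted p was under 0.05, and a difference held where it was called and was at least 2-fold the same way in all 3 pairs. Array values stand in the order solvent, low dose, high dose. Of 12833 genes tested, 3538 (27.6%) were called higher and 3344 (26.1%) lower in KKU-100, 53.6% in either direction. All 3 KKU-100 signals lay above all 3 HuccT1 signals for 29.8% of the genes and below them for 29.2%. The difference held for 1121 genes (8.74%) that were higher and for 1146 genes (8.93%) that were lower, or 17.7% together. At 4-fold in every pair 365 genes were higher and 415 were lower, and 10 genes were past 2-fold higher in one pair and past 2-fold lower in another, among them EGR1 and ASNS. Spearman correlations between arrays were 0.985 to 0.991 within a line and 0.932 to 0.941 between the lines, over probe sets and without a test. The 3′ to 5′ signal ratio of ACTB, a sign of RNA integrity, was 1.68 on the high-dose KKU-100 array and 1.13 to 1.27 on the other 5 arrays, and its part in the results was not tested.

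The defining markers of bile duct epithelium separated the lines. KRT19, a keratin of simple epithelia, had signals of 9.47, 8.62 and 11.1 in KKU-100 cells, against 9006, 9321 and 7654 in HuccT1 cells. EPCAM had signals of 11, 8.95 and 9.01 in KKU-100, against 6432, 6682 and 6567 in HuccT1. The KKU-100 signals of both genes lay below the array median and the HuccT1 signals lay far above it, with no overlap and little spread over the treatments. The mean difference was -9.80 ± 0.17 (moderated SE, n = 3 pairs, limma adjusted p = 1.51e-05) for KRT19 and -9.42 ± 0.14 (limma adjusted p = 1.14e-05) for EPCAM. KRT7, the other keratin used to recognise biliary cells, was measured well above the median in both lines, with 917, 1227 and 1073 in KKU-100 and 10354, 11038 and 10486 in HuccT1, a 9.98-fold lower signal in KKU-100 (limma adjusted p = 2.05e-05). The other tested probe set of KRT7 gave a smaller difference of -0.86. CLDN4, a tight junction claudin, had 23.3, 11.9 and 14.3 in KKU-100 and 329, 313 and 182 in HuccT1, although another probe set of the gene gave a difference of 0.25. CFTR, the chloride channel of duct cells, was 4.79-fold lower (limma adjusted p = 0.00262). KRT8 and KRT18, the pair of keratins of simple epithelia, were strong in both lines. KRT8 had 7501, 8852 and 6345 in KKU-100 and 5498, 5744 and 4534 in HuccT1, and KRT18 had 9747, 12615 and 9910.3 in KKU-100 and 10753, 10089 and 8034 in HuccT1 (limma adjusted p = 0.224). KRT18 was called without either solvent array, at a difference of 0.31 with an adjusted p of 0.00134 to 0.00144. KKU-100 thus carried KRT7, KRT8 and KRT18 far above the array median and was without the KRT19 and EPCAM signals that define bile duct epithelium.

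SPP1, which encodes the secreted phosphoprotein osteopontin and is found in bile duct cells, stood on the opposite side. Its signals were 10682, 10434 and 10199 in KKU-100, against 6.12, 6.99 and 8.03 in HuccT1, a difference of 10.54 ± 0.15 (limma adjusted p = 1.14e-05) that was the largest among genes higher in KKU-100 by the strongest probe set of each gene. SOX9, a transcription factor of bile duct and progenitor cells, had 921, 1059 and 546 in KKU-100 and 1408, 687 and 644 in HuccT1, so that the lines overlapped (difference -0.08 ± 0.24, limma adjusted p = 0.822). In all, 11 of the 14 measured biliary markers passed the filter, with 3 called higher and 5 called lower in KKU-100, beside 27.6% and 26.1% of all genes tested. Their median difference was -0.08, beside 0.01 over all genes tested. That median was -0.61 in the solvent pair alone and -2.26 without probe sets ending in _x_at or _s_at, which can match more than one sequence. In the biliary list 5 of the 11 tested passed with 1 line below the array median. Of 14 measured hepatocyte markers, 11 were below the array median in both lines. ALB, the main plasma protein of hepatocytes, had 8.09, 7.92 and 6.96 in KKU-100 and 8.27, 10.8 and 8.19 in HuccT1 and did not pass the filter. AFP, the fetal counterpart of albumin, had 64.3, 67.9 and 62.9 in KKU-100 and 32.8, 23.8 and 36.2 in HuccT1 (limma adjusted p = 0.00401). SERPINA1, an antiprotease made by liver and by some carcinomas, had 161, 159.6 and 147 in KKU-100 and 2411, 2466 and 3509 in HuccT1, a 17.7-fold lower signal in KKU-100 (limma adjusted p = 6.11e-05).

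Transcription factors of epithelial lineages, in a list that also holds the splicing regulator ESRP1, were more often lower in KKU-100. Of 23 tested, 3 were called higher and 13 lower, the difference held for 2 and 12, and the median was -1.64. The shares over all genes tested were 27.6% and 26.1% called, with 8.74% and 8.93% held. Of these 23, 6 passed the filter with 1 line below the array median. With no filter 2 of all 30 measured were called higher and 16 lower, with a median of -0.61, and with the filter applied in each line the median was -0.27. FOXA2, a factor of gut-derived epithelia, had 16.7, 16.6 and 20.4 in KKU-100 and 416, 456 and 562 in HuccT1 (difference -4.73 ± 0.12, limma adjusted p = 2.33e-05). ELF3, an epithelium-specific ETS factor, had 33.8, 31.7 and 34.4 in KKU-100 and 313, 675 and 504 in HuccT1. HHEX, needed for liver and bile duct development, had 18.4, 15.6 and 16.1 in KKU-100 and 268, 204 and 206 in HuccT1. All KKU-100 arrays were below all HuccT1 arrays for these 3 genes, beside 29.2% of all genes tested. ESRP1, which directs epithelial splicing, was the most different of the list, with 10.7, 8.52 and 36.1 in KKU-100 and 1643, 2238 and 2481 in HuccT1 (difference -7.13 ± 0.36, limma adjusted p = 0.000108). The grainyhead factors GRHL1 and GRHL2, which maintain epithelia, were 10.2-fold and 8.27-fold lower. The exceptions were CEBPA, a factor of hepatocyte and myeloid differentiation, with 169.6, 181 and 168 in KKU-100 and 32.1, 33 and 34.6 in HuccT1, and GATA4, an endoderm factor, 2.49-fold higher in KKU-100 although a second probe set gave -0.04. Among HOX genes, which set position along the body axis, HOXB7 was 31.4-fold higher and HOXB3 25.2-fold lower in KKU-100. Of 17 gastrointestinal and mucin genes tested, 4 were called higher and 8 lower, beside 27.6% and 26.1% of all genes tested. In that list 5 of the 17 passed with 1 line below the array median. With no filter 2 of all 26 measured were called higher and 10 lower. AGR2, a folding factor for mucins, had 13.1, 24.4 and 14.9 in KKU-100 and 3780.1, 3979.7 and 6466 in HuccT1, with its other tested probe set at a difference of -2.83. TFF1, a mucus-stabilising peptide, was 9.61-fold lower. The lower difference held for 5 genes of that list and for 5 of 9 tested squamous and basal genes, among them the calcium-binding protein gene S100A2, with 117, 116 and 117 in KKU-100 and 2908, 2814 and 2545 in HuccT1.

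Of 27 tested epithelial junction genes, 1 was called higher and 21 lower in KKU-100, beside 27.6% and 26.1% of all genes tested. The difference held for 1 and 14, beside 8.74% and 8.93%, with a median of -1.38. CDH1, which encodes E-cadherin of the adherens junction, had 22.9, 76.7 and 79.9 in KKU-100, against 2628, 3238 and 2714 in HuccT1. RAB25, an epithelial GTPase of membrane recycling, had 13.9, 12 and 12.7 in KKU-100 and 783, 1040.5 and 853 in HuccT1. The tight junction protein OCLN had 62, 73.8 and 85.8 in KKU-100 and 1501, 1617 and 1735 in HuccT1. Each of the 3 genes was separated without overlap, by -5.78 ± 0.35 for CDH1 (limma adjusted p = 0.000179), -6.11 ± 0.17 for RAB25 (limma adjusted p = 2.43e-05) and -4.46 ± 0.13 for OCLN (limma adjusted p = 2.53e-05). Separation in this direction was found for 29.2% of all genes tested. Within KKU-100, CDH1 was lowest on the solvent array. The tricellular junction gene MARVELD2 and the claudin gene CLDN7 were 18-fold and 21.7-fold lower. The membrane protease ST14 and its inhibitor SPINT1 were 35.1-fold and 22.7-fold lower in KKU-100, while the related inhibitor SPINT2 was 2.16-fold higher, with 6211, 6533 and 5946 in KKU-100 and 2815, 3095 and 2743 in HuccT1.

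**Figure D1:**
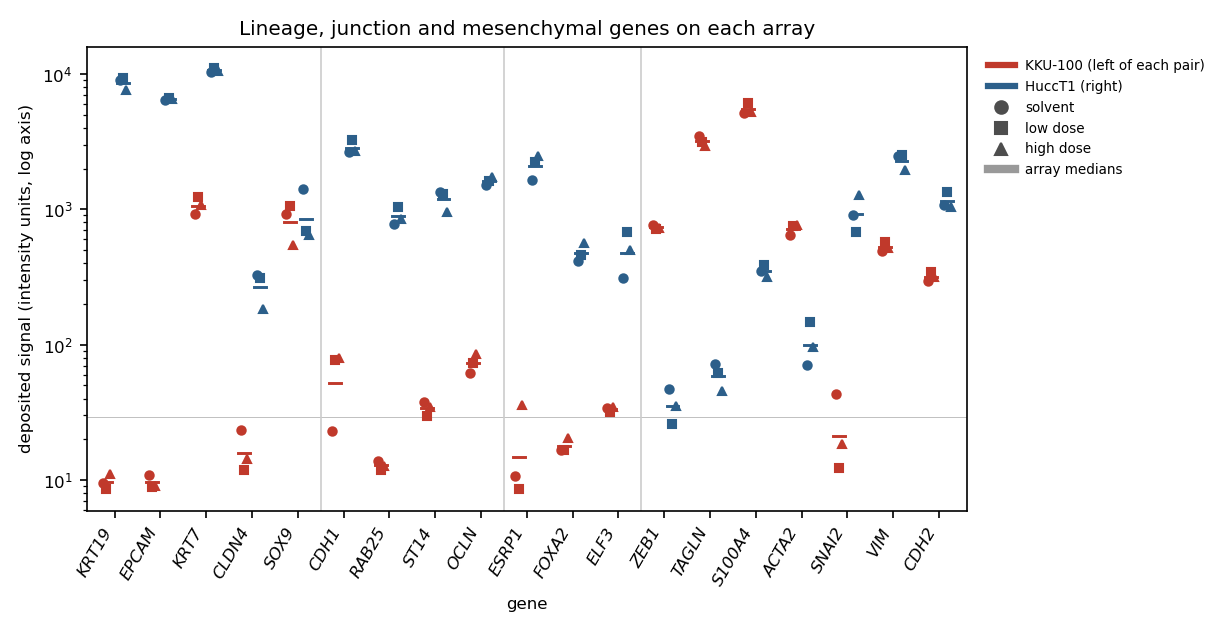
Signal of lineage, junction, epithelial and mesenchymal genes on each of the 6 arrays (log axis, deposited intensity units), with KKU-100 left of HuccT1 for each gene, symbols for treatment, a bar for the mean of the 3 log2 signals and a grey line at the array medians. KRT19 and EPCAM lie below the grey line in KKU-100 and far above it in HuccT1, ZEB1 and TAGLN are higher in KKU-100, whereas SNAI2, VIM and CDH2 are lower in KKU-100 than in HuccT1.

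Mesenchymal genes split between the lines. Of 22 tested, 10 were called higher and 9 lower in KKU-100, beside 27.6% and 26.1% of all genes tested. The difference held for 8 and 7, beside 8.74% and 8.93% (median 0.11). ZEB1, a repressor of junction genes, had 767, 713 and 733 in KKU-100 and 47.3, 25.8 and 35.4 in HuccT1 (difference 4.39 ± 0.18, limma adjusted p = 6.54e-05). Its other tested probe set gave a difference of 1.22. SNAI2, a repressor of the same kind, went the other way, with 43.1, 12.2 and 18.4 in KKU-100 and 914, 681 and 1282 in HuccT1 (difference -5.44 ± 0.34, limma adjusted p = 0.000203). SNAI1 had 43.5, 30.8 and 35.1 in KKU-100 and 29.2, 34.5 and 31.2 in HuccT1 and was not called (limma adjusted p = 0.383). Among structural genes, the calcium-binding protein S100A4 had 5130.5, 6073 and 5218 in KKU-100 and 349.7, 388 and 316 in HuccT1, and the smooth muscle actin gene ACTA2 had 646, 747 and 760.5 in KKU-100 and 70.5, 147 and 96.2 in HuccT1. TAGLN, an actin-binding protein, had 3465, 3163 and 2919 in KKU-100 and 72.1, 61.7 and 45.3 in HuccT1 by its strongest probe set, while another probe set of the gene gave a difference of -0.02. In contrast, VIM, the intermediate filament vimentin, had 493, 576 and 518 in KKU-100 and 2455, 2522 and 1936 in HuccT1, and CDH2, which encodes N-cadherin, had 295, 342 and 315 in KKU-100 and 1074, 1349.8 and 1037 in HuccT1. Neither gene overlapped between the lines (limma adjusted p = 0.000128 for VIM and 0.000192 for CDH2). Over all genes tested, 29.2% had every KKU-100 signal below every HuccT1 signal. KKU-100 thus had low E-cadherin together with lower vimentin and N-cadherin. Matrix genes of the list were divided too, with COL5A2, a fibrillar collagen, 12.5-fold and LOX, a collagen cross-linking enzyme, 4.09-fold higher, and TGFBI, a matrix protein induced by TGF-beta, 12.3-fold, COL6A2, a collagen VI chain, 14.2-fold and FN1, fibronectin, 3.7-fold lower. Probe sets of LOX and of FN1 differed among themselves in the size of the difference, not in its direction. Of 10 fibroblast markers 5 passed the filter, and their summed signal over the whole list was 898 to 1182 in KKU-100 and 367 to 440 in HuccT1. COL3A1, a fibrillar collagen, had 538, 779 and 548 in KKU-100 and 8.62, 6.51 and 8.06 in HuccT1. COL1A1 had 164, 197 and 164 in KKU-100 and 164, 169 and 135 in HuccT1 and was not called, while its 3 probe sets ran from -3.00 to 0.17. With no filter 2 of all 10 fibroblast markers were called higher and 2 lower, with a median of -0.04. The part of these markers in the mesenchymal differences was not tested. Of 6 leukocyte markers 3 passed the filter, 1 called higher and 1 lower. The defining leukocyte marker PTPRC was between 9.1 and 10.5 on all 6 arrays, while the actin-bundling protein gene LCP1 had 174, 116 and 119.6 in KKU-100 and 31.3, 34.2 and 36.5 in HuccT1, 3.95-fold higher (limma adjusted p = 0.000758). The part of these markers in the results was not tested.

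Genes of the matrix around the cells and of the proteins that anchor them differed in both directions. Of 19 tested laminins and basement membrane genes the difference held for 6 that were higher and 3 that were lower in KKU-100, beside 8.74% and 8.93% of all genes tested. NID2, a linker of basement membrane laminin and collagen, had 510.2, 663 and 647 in KKU-100 and 10, 9 and 13.2 in HuccT1 (difference 5.83 ± 0.16, limma adjusted p = 2.54e-05). The collagen IV chain genes COL4A1 and COL4A2 were 11.3-fold and 4.05-fold higher in KKU-100, and the laminin chains LAMB2 and LAMA4 5.25-fold and 5.11-fold. A second probe set gave a difference of 1.63 for COL4A1 and of 0.07 for COL4A2, and the 3 of LAMA4 ran from 0.67 to 2.35. LAMB3, a chain of the epithelial laminin of hemidesmosomes, had 406, 396 and 376 in KKU-100 and 2688, 2084 and 2277 in HuccT1, and COL4A5 was 9.84-fold lower. Of 16 integrin subunits tested, 5 were called higher and 4 lower, beside 27.6% and 26.1% of all genes tested, so that these shares were near the background. The difference held for ITGA10 and ITGA3, which were higher, and for ITGB2, the leukocyte integrin beta subunit, which was lower. The 3 probe sets of ITGB2 ran from -3.55 to -0.11. Among other surface molecules, the tetraspanin CD81 had 1936, 1895 and 1941 in KKU-100 and 12.3, 9.03 and 10.5 in HuccT1, the difference being 7.51 ± 0.14 (limma adjusted p = 1.73e-05). L1CAM, a neural adhesion molecule found in invasive carcinomas, had 26.9, 28.5 and 26.3 in KKU-100 and 848, 1076 and 794 in HuccT1, with a second probe set at -0.50. CLMP, a junctional adhesion protein, was 163-fold and SDC2, a syndecan, 7.08-fold higher, and the heparan sulphate proteoglycan GPC4 was 28.1-fold lower in KKU-100.

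The largest difference in each direction was that of a secreted protein, SPP1 higher and CXCL5 lower in KKU-100. RSPO3, a ligand that strengthens WNT signalling, had 3295, 5726 and 3874 in KKU-100 and 11.2, 9.94 and 9.25 in HuccT1 (difference 8.70 ± 0.21, limma adjusted p = 2.01e-05). SCG2, a granin of secretory granules, had 3174, 3382 and 2942 in KKU-100 and 13.5, 11.9 and 9.68 in HuccT1. SERPINE2, an inhibitor of thrombin and urokinase, had 9459, 8533 and 8816 in KKU-100 and 41, 37.1 and 39.3 in HuccT1. For these 3 genes the KKU-100 signals varied little with treatment, apart from the low-dose array of RSPO3. The stress-induced growth factor GDF15 had 2842, 2212 and 2163 in KKU-100 and 56.4, 76.2 and 301 in HuccT1, so that HuccT1 was highest at the high dose. STC2, a glycoprotein hormone, was 27.1-fold, SFRP1, a WNT antagonist, 25.5-fold and IGFBP2, which binds insulin-like growth factors, 14.5-fold higher in KKU-100, each against HuccT1 signals below the array median. The activin subunit genes INHBA and INHBB and the ligand genes BMP2 and BMP4 were lower in KKU-100. INHBA had 56.2, 30.2 and 54.3 in KKU-100 and 3185, 2587 and 1130.5 in HuccT1 (difference -5.54 ± 0.39, limma adjusted p = 0.000275), and INHBB was 9-fold, BMP4 12.2-fold and TGFA, a ligand of EGFR, 5.92-fold lower. WNT10A, a WNT ligand, was 9.08-fold lower. Over 40 growth factor genes tested, 13 were called higher and 16 lower, beside 27.6% and 26.1% of all genes tested, and the median was -0.13.

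Proteases and their inhibitors went in part separate ways. MMP7, matrilysin of glandular epithelia, had 23.8, 21 and 29 in KKU-100 and 5869.7, 6916 and 5105 in HuccT1 (difference -7.92 ± 0.20, limma adjusted p = 2.07e-05). PLAU, the urokinase gene, had 412, 202 and 249 in KKU-100 and 3038, 2782 and 1639 in HuccT1, and the collagenase MMP1 was 31.1-fold lower in KKU-100. The cystatin CST6, an inhibitor of cysteine proteases, had 20.8, 25.5 and 19.8 in KKU-100 and 4742, 4991 and 4774 in HuccT1. MMP7, PLAU and CST6 did not overlap between the lines, beside 29.2% of all genes tested with every KKU-100 signal below every HuccT1 signal. Several inhibitors of serine proteases and metalloproteinases lay on the other side. TFPI2 had 7081, 6277 and 6159 in KKU-100 and 472, 408 and 474 in HuccT1, TIMP3 had 1022, 1306 and 1082 in KKU-100 and 36.2, 41.7 and 44.2 in HuccT1, and SERPINA3 was 23.3-fold higher in KKU-100. The secreted elastase inhibitor genes PI3 and SLPI were 11.9-fold and 7.42-fold higher, and so was PLAT, tissue plasminogen activator (7.91-fold). In the list of 28 tested proteases and inhibitors, the difference held for 9 that were higher and 6 that were lower. The shares over all genes tested were 8.74% and 8.93%. Within the list 5 of the 28 passed with 1 line below the array median.

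Among the chemokines, CXC members that attract neutrophils showed the largest differences towards HuccT1. CXCL5 had 7.38, 8.27 and 7.38 in KKU-100, against 16229, 15718 and 13614 in HuccT1, and CXCL6 had 7.51, 6.11 and 6.87 in KKU-100, against 3531, 5333 and 3088 in HuccT1. The differences were -10.95 ± 0.13 (limma adjusted p = 1.14e-05) and -9.15 ± 0.23 (limma adjusted p = 2.07e-05), from KKU-100 signals far below the array median. PPBP, another CXC chemokine gene of the same cluster on chromosome 4, had 11.7, 11.2 and 11.3 in KKU-100 and 2305, 1929.6 and 1315 in HuccT1. CCL20, which draws CCR6-bearing lymphocytes, had 89.8, 49.3 and 469 in KKU-100 and 5534, 8676 and 8098 in HuccT1. CXCL1 had 1050.3, 614 and 1576 in KKU-100 and 10205, 9847 and 9052 in HuccT1, and CXCL3 had 79.8, 69.7 and 1187 in KKU-100 and 5807, 5727 and 8472 in HuccT1. In KKU-100 the high-dose array was the highest for CCL20, CXCL1 and CXCL3, yet below every HuccT1 array. CCL2, which attracts monocytes, was 6.33-fold and CCL28, a mucosal chemokine, 22.4-fold lower. CXCL8, the gene of interleukin-8, was above the array median in both lines, with 4114, 562 and 4159 in KKU-100 and 7272, 7626 and 8417 in HuccT1 (limma adjusted p = 0.0424), and was lowest on the low-dose KKU-100 array. Without either high-dose array the difference was -2.29 with an adjusted p of 0.058 to 0.0588. Because some CXC probe sets can match related family members, a part of these signals may be shared. The chemokines induced by interferon went the other way. CXCL11 had 147, 215 and 296 in KKU-100 and 6.32, 11.8 and 46 in HuccT1, CXCL10 had 79.7, 155 and 313 in KKU-100 and 27.8, 46 and 59.9 in HuccT1, and CCL5, which attracts T cells, had 455, 388 and 1691 in KKU-100 and 20.3, 26.6 and 121 in HuccT1. Of 16 tested chemokines, 4 were called higher and 10 lower, beside 27.6% and 26.1% of all genes tested. The list median was -1.69 in the solvent pair, -3.38 in the low-dose pair and -1.31 in the high-dose pair. In this list 5 of the 16 passed with 1 line below the array median. With no filter the same numbers, 4 and 10, were called of all 21 measured, and the median over the pairs was -0.51, against -2.26 with the filter.

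Genes known as NF-kB targets were lower in KKU-100 or were not called. Of 22 NF-kB targets tested, 0 were called higher and 16 lower by limma, and the difference held for 9 that were lower (median -1.69, and -0.89 without probe sets ending in _x_at or _s_at). The shares over all genes tested were 27.6% and 26.1% called, with 8.74% and 8.93% held. The list shares CXCL1, CXCL2, CXCL3, CXCL8, CCL20, IL6, ICAM1 and BCL2A1 with other lists described here. IL6, an inflammatory cytokine that acts through STAT3, had 32.6, 30.6 and 56.6 in KKU-100 and 2460.4, 4021 and 1886 in HuccT1 (difference -6.11 ± 0.37, limma adjusted p = 0.000179). TNF had 35.9, 39 and 63.3 in KKU-100 and 187, 371 and 491 in HuccT1. IL1RN, the natural antagonist of the interleukin-1 receptor, had 17, 26.2 and 30.7 in KKU-100 and 983, 569 and 543 in HuccT1. BCL2A1, an anti-apoptotic NF-kB target, had 21.8, 9.65 and 24.9 in KKU-100 and 684, 349.5 and 857 in HuccT1, and PTGS2, the inducible cyclooxygenase, had 78, 20.4 and 83.1 in KKU-100 and 519, 421 and 772 in HuccT1. The lines did not overlap in any of these 5 genes, beside 29.2% of all genes tested with every KKU-100 signal below every HuccT1 signal. IL11, a cytokine of the IL6 family, varied with treatment in HuccT1, with 30.6, 25.5 and 21.8 in KKU-100 and 1411, 197 and 57.5 in HuccT1 (difference -3.29 ± 0.74, limma adjusted p = 0.0147), and without either low-dose array its adjusted p was 0.0595. Of the genes for NF-kB subunits and inhibitors, REL, RELA, RELB, NFKBIA and NFKBIE were not called and NFKB1 and NFKB2 were called lower, by 1.73-fold and 1.63-fold. The calls of NFKB1 and NFKB2 were lost without either low-dose or either high-dose array (adjusted p from 0.0721 to 0.133), and NFKBIE was called lower without either solvent array (-0.89, adjusted p from 0.0346 to 0.0351). NFKBIA had 1818, 2825 and 3719 in KKU-100 and 1643, 2832 and 3621 in HuccT1. Within the cytokine list the difference held for 2 of 17 tested genes that were higher, TNFSF13B and TNFSF15 of the TNF family, and for 10 that were lower, among them IL32 (13.7-fold). In that list 4 of the 17 passed with 1 line below the array median. With no filter 6 of all 22 measured were called higher and 11 lower, with a median of -1.07, against -2.06 with the filter.

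The 250 bases before the start of CXCL5 and CXCL6, the chemokines with the largest lower differences, are shown because both genes lie in the same cluster. They were read from RefSeq promoters of build GRCh38.p14 at chr4:73998678-73998927 (reverse strand) and chr4:73836428-73836677 (forward strand), and the capitals mark the longest run of bases that both share.
CXCL5: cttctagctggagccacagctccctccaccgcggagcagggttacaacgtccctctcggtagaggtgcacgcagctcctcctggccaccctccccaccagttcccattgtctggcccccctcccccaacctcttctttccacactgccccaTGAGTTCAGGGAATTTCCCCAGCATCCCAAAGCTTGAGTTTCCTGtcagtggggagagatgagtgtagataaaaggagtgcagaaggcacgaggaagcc
CXCL6: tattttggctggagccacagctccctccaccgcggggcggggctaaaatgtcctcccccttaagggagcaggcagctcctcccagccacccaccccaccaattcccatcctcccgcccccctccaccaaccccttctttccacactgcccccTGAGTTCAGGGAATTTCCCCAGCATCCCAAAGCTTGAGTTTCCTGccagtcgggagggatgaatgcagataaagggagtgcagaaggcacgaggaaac
The shared run is 45 bases long and begins 99 bases before the start in CXCL5 and 98 bases before it in CXCL6. Aligned without gaps, 214 of 249 bases (85.9%) were identical. Among the 13 of 16 tested chemokines with a promoter in the table, the other 77 pairs shared runs of 7 to 42 bases, with a median of 8. The activity of these promoters was not measured.

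**Figure D2:**
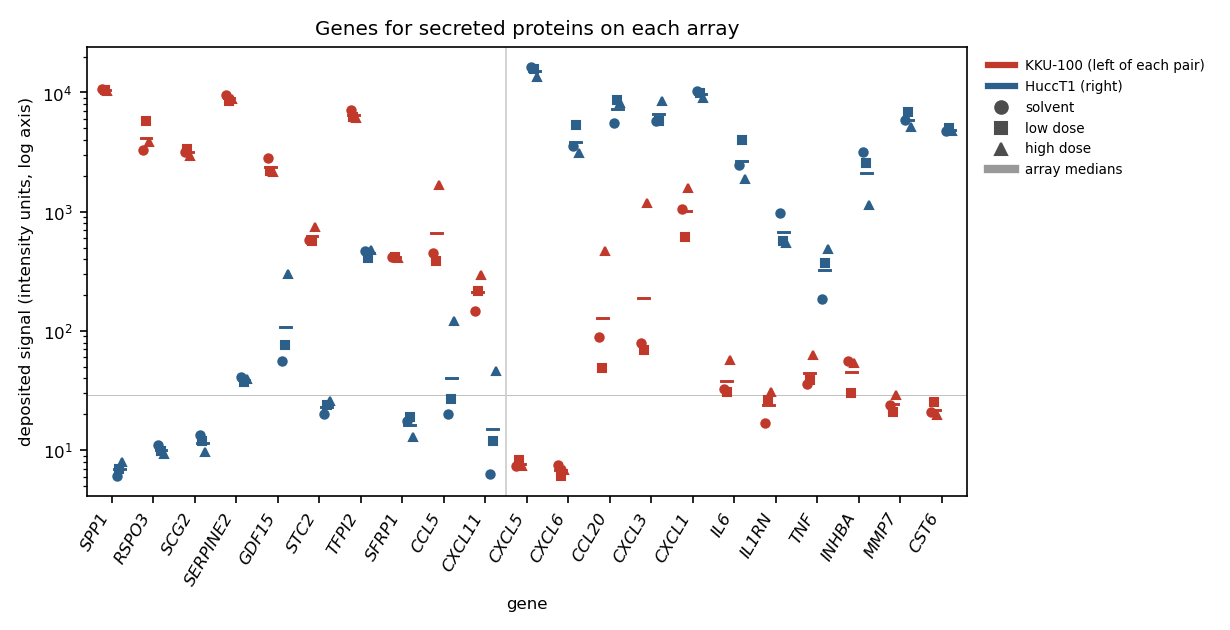
Signal of 21 genes for secreted proteins on each of the 6 arrays (log axis, deposited intensity units), with KKU-100 left of HuccT1 for each gene, symbols for treatment, a bar for the mean of the 3 log2 signals and a grey line at the array medians. From SPP1 to CXCL11 the KKU-100 arrays are above all HuccT1 arrays, and from CXCL5 to CST6 they are below.

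Receptor genes differed in both directions. Of 23 receptor tyrosine kinases tested, 5 were called higher and 8 lower, beside 27.6% and 26.1% of all genes tested and 53.6% in either direction, so that the share called was near the background. The difference held for INSR, FGFR3 and MERTK, which were higher, and for ERBB3 and ROR1, which were lower, beside 17.7% of all genes in either direction. The insulin receptor gene INSR had 248, 194 and 172 in KKU-100 and 29.5, 21.7 and 31.6 in HuccT1, and FGFR3, a fibroblast growth factor receptor, had 197, 114 and 105 in KKU-100 and 15.2, 26.6 and 20.6 in HuccT1. ERBB3, a partner of ERBB2 that binds neuregulin, had 42, 138 and 97.5 in KKU-100 and 428, 626 and 455 in HuccT1 (difference -2.59 ± 0.26, limma adjusted p = 0.000923). EGFR, MET, ERBB2 and FGFR2, which are drug targets in carcinomas, differed by less than 2-fold on average. EGFR had 601, 688 and 558 in KKU-100 and 801, 806 and 861 in HuccT1 (difference -0.42 ± 0.12, limma adjusted p = 0.0336), a call that was lost without either low-dose or either high-dose array, with adjusted p from 0.078 to 0.192. MET had 2999, 2633 and 2328 in KKU-100 and 4744, 4234 and 3349 in HuccT1 and was 1.54-fold lower (limma adjusted p = 0.000956). ERBB2 had 343, 469 and 420.5 in KKU-100 and 366, 505 and 347 in HuccT1, and FGFR2 had 48.7, 51.1 and 45.4 in KKU-100 and 43.3, 60.8 and 54.4 in HuccT1, and neither was called (limma adjusted p = 0.902 for ERBB2 and 0.544 for FGFR2). Other probe sets of these genes gave other values, from -1.21 to 0.05 for the 9 of EGFR and from -2.30 to -0.11 for the 4 of FGFR2, and those of ROR1 ran from -1.80 to 0.64. The 3 probe sets of ERBB3 ran from -2.59 to -0.26 and the 3 of INSR from 0.64 to 2.89.

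Cytokine and TNF-family receptors were called higher more often than lower in KKU-100. Of 41 tested, 20 were called higher and 7 lower, and the difference held for 6 and 2 (median 0.40). The shares over all genes tested were 27.6% and 26.1% called, with 8.74% and 8.93% held. IL1R1, the signalling receptor of interleukin-1, had 235, 295 and 218 in KKU-100 and 28.1, 20.2 and 27 in HuccT1 (difference 3.31 ± 0.21, limma adjusted p = 0.000194), whereas IL1R2, its decoy, had 26.9, 18.6 and 15.5 in KKU-100 and 171, 172 and 100.4 in HuccT1. IL20RB, a subunit for interleukins of the IL-10 family, had 362, 549 and 510.4 in KKU-100 and 14, 20.8 and 37 in HuccT1. The HuccT1 signals of IL1R1 were below the array median, and those of IL20RB were above it on the high-dose array only. IL18R1, the receptor of interleukin-18, was 9.43-fold, CRLF2, the receptor of thymic stromal lymphopoietin, 7.69-fold and TNFRSF11A, the receptor RANK, 5.96-fold higher. Of 30 G protein-coupled receptors, 4 were called higher and 12 lower, beside 27.6% and 26.1% of all genes tested, and the median was -0.34. In that list 9 of the 30 passed with 1 line below the array median. With no filter 7 of all 46 measured were called higher and 12 lower, with a median of -0.16. S1PR3, a receptor for sphingosine-1-phosphate, had 556, 346 and 293 in KKU-100 and 11.5, 10.7 and 9.38 in HuccT1, and F2RL2, a protease-activated receptor, was 27.2-fold higher. The oxytocin receptor gene OXTR had 23.8, 15.2 and 21.4 in KKU-100 and 264, 281 and 306 in HuccT1, and the nucleotide receptor gene P2RY2 was 6.78-fold lower. Both were below the array median in KKU-100. Of 14 ephrins and Eph receptors tested the difference held for 4, all lower, beside 8.93% of all genes tested. The ephrin gene EFNB2 led them, with 534, 109 and 118 in KKU-100 and 1642, 1241 and 1323 in HuccT1. In the WNT, Notch and Hedgehog list the difference held for 1 of 23 tested genes. This was the R-spondin receptor LGR4, with 94.8, 105 and 101 in KKU-100 and 276, 321 and 209 in HuccT1. Among nuclear receptors NR2F1, an orphan receptor of mesenchyme and nervous system, was 7.97-fold and the immediate-early receptors NR4A2 and NR4A3 5.07-fold and 5.85-fold higher, and the mineralocorticoid receptor gene NR3C2 was 7.18-fold lower in KKU-100. TGFBR3, the co-receptor betaglycan, was 3.44-fold higher and was the only one of 12 TGF-beta and BMP receptors tested for which the difference held.

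**Figure D3:**
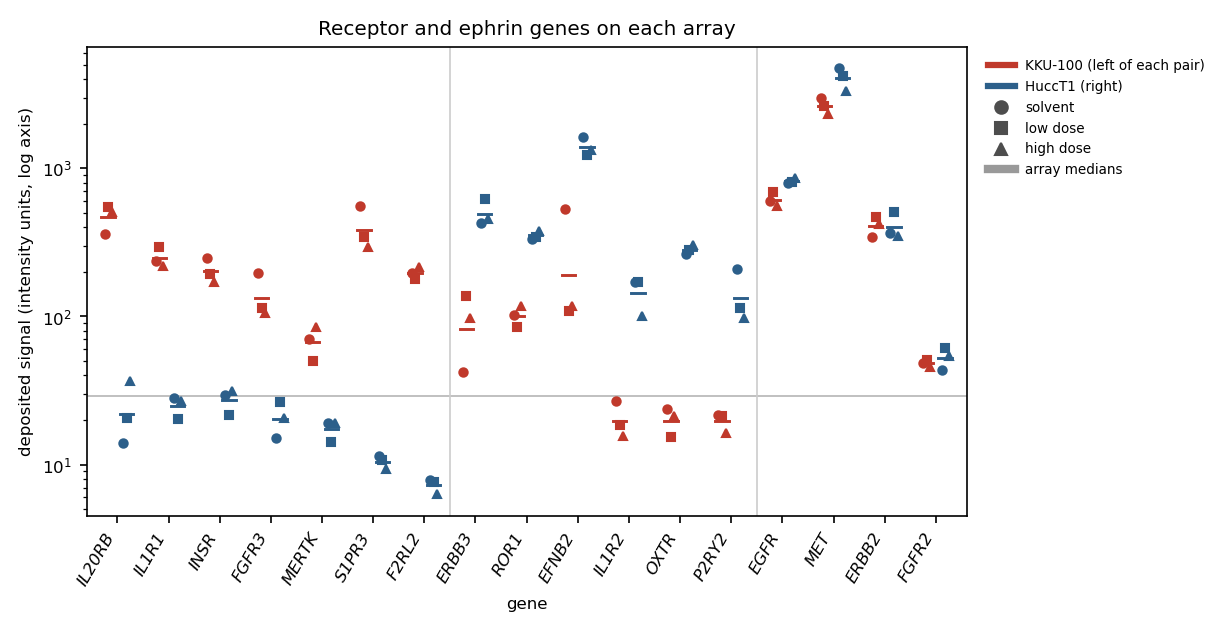
Signal of 17 receptor and ephrin genes on each of the 6 arrays (log axis, deposited intensity units), with KKU-100 left of HuccT1 for each gene, symbols for treatment, a bar for the mean of the 3 log2 signals and a grey line at the array medians. From IL20RB to F2RL2 the KKU-100 arrays are above all HuccT1 arrays, from ERBB3 to P2RY2 they are below, and ERBB2 and FGFR2 overlap.

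Interferon-stimulated genes, the antiviral programme switched on by type I interferon through ISGF3, had the largest share of genes called higher in KKU-100 among the lists. Of 42 tested, 40 were called higher and 0 lower by limma, beside 27.6% and 26.1% of all genes tested. The higher difference held for 29, beside 8.74%, and the median was 2.29. RSAD2, the antiviral enzyme viperin, had 1440.1, 1782 and 1725 in KKU-100 and 11.3, 12.7 and 11.7 in HuccT1 (difference 7.11 ± 0.13, limma adjusted p = 1.68e-05). IFI44L, an interferon-induced gene of the IFI44 family, had 2419, 2746 and 2150.04 in KKU-100 and 21.2, 27.2 and 21.9 in HuccT1. IFI6, a mitochondrial survival factor, had 11072, 10885 and 11133 in KKU-100 and 328, 344 and 343 in HuccT1. These signals hardly moved with treatment within a line. ISG15, a ubiquitin-like modifier, had 15409, 16382 and 16087 in KKU-100 and 1789, 1892 and 1825 in HuccT1. XAF1, a pro-apoptotic factor, was 5.41-fold higher and had its highest signal on the high-dose array in both lines. IRF9, the DNA-binding subunit of ISGF3, had 1623, 1911 and 1631 in KKU-100 and 120.01, 110.5 and 109 in HuccT1. The 2 tested members that were not called were IFIT5 (difference 0.19, with its other probe set at 1.71) and GBP2 (difference -0.32), which without either solvent array was called lower at -0.55 with an adjusted p of 0.0167 to 0.017. IFNB1, which encodes interferon beta, had 63.7, 49.6 and 96.9 in KKU-100 and 14.1, 14.7 and 24.3 in HuccT1 (difference 1.98 ± 0.13, limma adjusted p = 0.000206). IFIT1, which binds viral RNA, had 3946, 6161 and 4086 in KKU-100 and 216, 787 and 492 in HuccT1, lowest in HuccT1 on the solvent array.

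Target genes of NRF2, the regulator of the antioxidant and detoxification response, were higher in KKU-100 as well. Of 25 tested, 18 were called higher and 0 lower by limma, beside 27.6% and 26.1% of all genes tested. The higher difference held for 11, beside 8.74%, and the median was 1.35. ALDH3A1, an aldehyde dehydrogenase, had 4253, 4376 and 3943 in KKU-100 and 42.5, 29.5 and 30.8 in HuccT1 (difference 6.95 ± 0.15, limma adjusted p = 1.83e-05). The aldo-keto reductase gene AKR1C1 had 8910.4, 12696 and 11486 in KKU-100 and 422, 450.2 and 285 in HuccT1. AKR1C2 and AKR1C3 were 31.4-fold and 23.3-fold higher, but the sequences of these 3 genes are nearly identical and their probe sets may share signal. NQO1, a quinone reductase, had 11125, 11554 and 10707 in KKU-100 and 1537, 1364 and 1563 in HuccT1, and HMOX1, haem oxygenase, had 589.9, 922 and 557 in KKU-100 and 78.3, 72.4 and 106 in HuccT1. The genes of NRF2 itself and of its inhibitor were not called, with NFE2L2 at 2667, 1559 and 1849 in KKU-100 and 1686, 1958 and 2322 in HuccT1 (limma adjusted p = 0.997) and KEAP1 at a difference of -0.03. Without either solvent array NFE2L2 was called lower, at -0.33 with an adjusted p of 0.0144 to 0.0161. Of 25 genes of drug metabolism and efflux, which share ALDH3A1, ABCC1 and ABCC3 with the NRF2 list, 13 were called higher and 6 lower, and the difference held for 10 and 3. In that list 5 of the 25 passed with 1 line below the array median. The glutathione transferase gene GSTT1 had 424, 394 and 436 in KKU-100 and 15.4, 19.1 and 17.3 in HuccT1, ALDH1A1 had 142, 267 and 163 in KKU-100 and 11, 8.07 and 11.9 in HuccT1, and GSTM3 had 418, 474 and 417 in KKU-100 and 3284, 4269 and 3922 in HuccT1. The efflux pump gene ABCG2 was 2.76-fold higher. Of 31 hypoxia and glycolysis genes tested, 15 were called higher and 7 lower, beside 27.6% and 26.1% of all genes tested. The difference held for 5 and 0, beside 8.74% and 8.93%, with SLC2A3, a glucose transporter, 13-fold and NDRG1, a stress-induced gene, 4.94-fold higher. LDHB, the lactate dehydrogenase B chain, had 9999, 10394 and 9515 in KKU-100 and 30, 21.9 and 22.9 in HuccT1, measured by probe sets that can match related sequences.

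Of 23 p53 targets tested, 16 were called higher and 2 lower in KKU-100, beside 27.6% and 26.1% of all genes tested. The difference held for 9 and 0, beside 8.74% and 8.93% (median 1.12). CDKN1A, the cyclin-dependent kinase inhibitor p21, had 4581, 2834 and 3384 in KKU-100 and 694, 403 and 620.2 in HuccT1 (difference 2.66 ± 0.10, limma adjusted p = 5.71e-05). MDM2, which degrades p53, had 5402, 3932 and 4219.5 in KKU-100 and 1015, 1060.5 and 911 in HuccT1, with all 6 of its probe sets higher. SPATA18, a mitochondrial p53 target, was 13.2-fold and the pro-apoptotic BAX 2.25-fold higher. Genes of the G2 and M phases were lower. Of 30 G2/M genes, 0 were called higher and 29 lower by limma, the difference held for 21, and the median was -1.59, with single genes from -2.33 to 0.43. NEK2, a centrosomal kinase, had 418, 454 and 352 in KKU-100 and 1834, 2325 and 1977 in HuccT1, and MKI67, the Ki-67 proliferation antigen, had 262, 195 and 139 in KKU-100 and 1002, 946 and 787 in HuccT1. The 4 tested probe sets of MKI67 ran from -2.44 to -0.21. Of 31 G1/S genes 6 were called higher and 17 lower (median -0.64). Within that list CCNE1, cyclin E1, had 899, 848 and 837 in KKU-100 and 389, 189 and 211 in HuccT1 and was higher, while the helicase gene MCM7 had 432, 506 and 284 in KKU-100 and 1462, 1315 and 1228 in HuccT1.

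Inhibitors of the G1 kinases had the largest differences among driver genes of bile duct cancer. CDKN2B, p15, had 7.59, 8.21 and 7.68 in KKU-100 and 274, 409 and 442 in HuccT1 (difference -5.55 ± 0.16, limma adjusted p = 2.81e-05). CDKN2A, which encodes p16 and ARF, had 24.3, 25.7 and 30.4 in KKU-100 and 721, 768 and 628 in HuccT1 (difference -4.72 ± 0.16, limma adjusted p = 4.11e-05). The KKU-100 signals of CDKN2B lay far below the array median. On chromosome 9 the neighbouring tested gene MTAP, of methionine salvage, was 2.49-fold lower in KKU-100 (limma adjusted p = 0.00667). Its difference was -0.89 in the high-dose pair, and its 5 probe sets ran from -5.29 to -0.57. The kinase gene CDK6 had 484, 482 and 443 in KKU-100 and 2261, 1559.6 and 1698 in HuccT1. SMAD4, the shared mediator of TGF-beta and BMP signals, had 78.2, 48.5 and 66.4 in KKU-100 and 255, 211 and 266 in HuccT1 (difference -1.94 ± 0.14, limma adjusted p = 0.000336), and STK11, a tumour suppressor kinase, was 2.33-fold lower. Of 32 bile duct cancer drivers tested the difference held for 2 that were higher, MDM2 and CCNE1, and for these 5 that were lower. Over all genes tested the held shares were 8.74% and 8.93%. In the driver list 9 were called higher and 9 lower, beside 27.6% and 26.1% of all genes, so that the shares called were near the background. Among regulators of cell death, BIK, a BH3-only protein, had 87.7, 55.6 and 62.2 in KKU-100 and 2531, 2220.5 and 1294 in HuccT1, and BID was 3.76-fold lower. Of 13 oncofetal and cancer-testis genes tested, 8 were called higher and 4 lower, and the difference held for 6 and 3. Among cancer-testis genes, which are normally confined to germ cells, it held for MAGEA6, MAGEA12, MAGEB2 and MAGEA1, all higher, and for DDX43, which was lower. MAGEA6 had 527, 627 and 603 in KKU-100 and 13.1, 11 and 18.7 in HuccT1, and DDX43 had 6.76, 10.9 and 6.76 in KKU-100 and 363, 339 and 319 in HuccT1. Probe sets of MAGEA members can match each other. In the oncofetal and cancer-testis list 6 of the 13 tested passed with 1 line below the array median. With no filter 10 of all 29 measured were called higher and 4 lower, with a median of 0.08. With the filter applied in each line the median was -0.12, against 1.10. IGF2BP3, an oncofetal RNA-binding protein, was 5.12-fold higher, and HMGA2, an oncofetal chromatin protein, had 188, 61.9 and 64.9 in KKU-100 and 1770.4, 907 and 316 in HuccT1.

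Among the genes that the study followed, YAP1 and several of its partners and targets differed in both directions. AREG, the YAP1 target at the centre of the study, is not reported here. YAP1, the coactivator held back by the Hippo pathway, had 1118, 1205 and 1121 in KKU-100 and 2165, 2023 and 1542 in HuccT1 (difference -0.72 ± 0.12, limma adjusted p = 0.00478). Its paralogue WWTR1, the TAZ gene, had 2018, 1793 and 1519 in KKU-100 and 1081, 803 and 717 in HuccT1 (difference 1.05 ± 0.10, limma adjusted p = 0.000673). YAP1 and WWTR1 thus lay in opposite directions. TAF4, a subunit of the general factor TFIID, had 335, 278 and 225 in KKU-100 and 397, 386 and 278 in HuccT1 and was not called (limma adjusted p = 0.0712). Of 21 YAP/TAZ targets tested, 7 were called higher and 11 lower, and the difference held for 2 each (median -0.35). Over all genes tested the difference held for 8.74% that were higher and 8.93% that were lower. CCN2, the connective tissue growth factor, had 6777, 148 and 192 in KKU-100 and 278, 115 and 77.8 in HuccT1, with the solvent KKU-100 array standing far above the others. Its mean difference of 2.09 ± 0.79 had an adjusted p of 0.0758 by limma, and without either solvent array the difference was 0.83 with an adjusted p of 0.0271 to 0.0285. CCN1 had 4957, 1956 and 2201 in KKU-100 and 5689, 4860.02 and 3952 in HuccT1, and its call (limma adjusted p = 0.0237) was lost without either low-dose or either high-dose array, with adjusted p from 0.0821 to 0.0916. FOXF2, a forkhead factor of mesenchyme, was 9.03-fold higher. ANKRD1, an ankyrin repeat protein, had 43, 54.1 and 46.3 in KKU-100 and 712, 543 and 166 in HuccT1, and F3, tissue factor, had 781, 1042 and 634 in KKU-100 and 9076, 5882 and 2728 in HuccT1. UHRF1, an epigenetic regulator, had 396, 899 and 570.3 in KKU-100 and 1799.5, 1399 and 773 in HuccT1 (limma adjusted p = 0.0469, and 0.0859 to 0.0868 without either low-dose array). BCL2L11, the BH3-only protein BIM, had 492, 168 and 179 in KKU-100 and 171, 136 and 178 in HuccT1 and was not called. Its 6 probe sets ran from -0.58 to 0.61. CCND1, cyclin D1, was 1.86-fold and CDKN1B, p27, 1.6-fold lower in KKU-100. Of 22 output genes of the MAPK pathway, 2 were called higher and 7 lower, beside 27.6% and 26.1% of all genes tested. The difference held for 0 and 3, beside 8.74% and 8.93%.

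**Figure D4:**
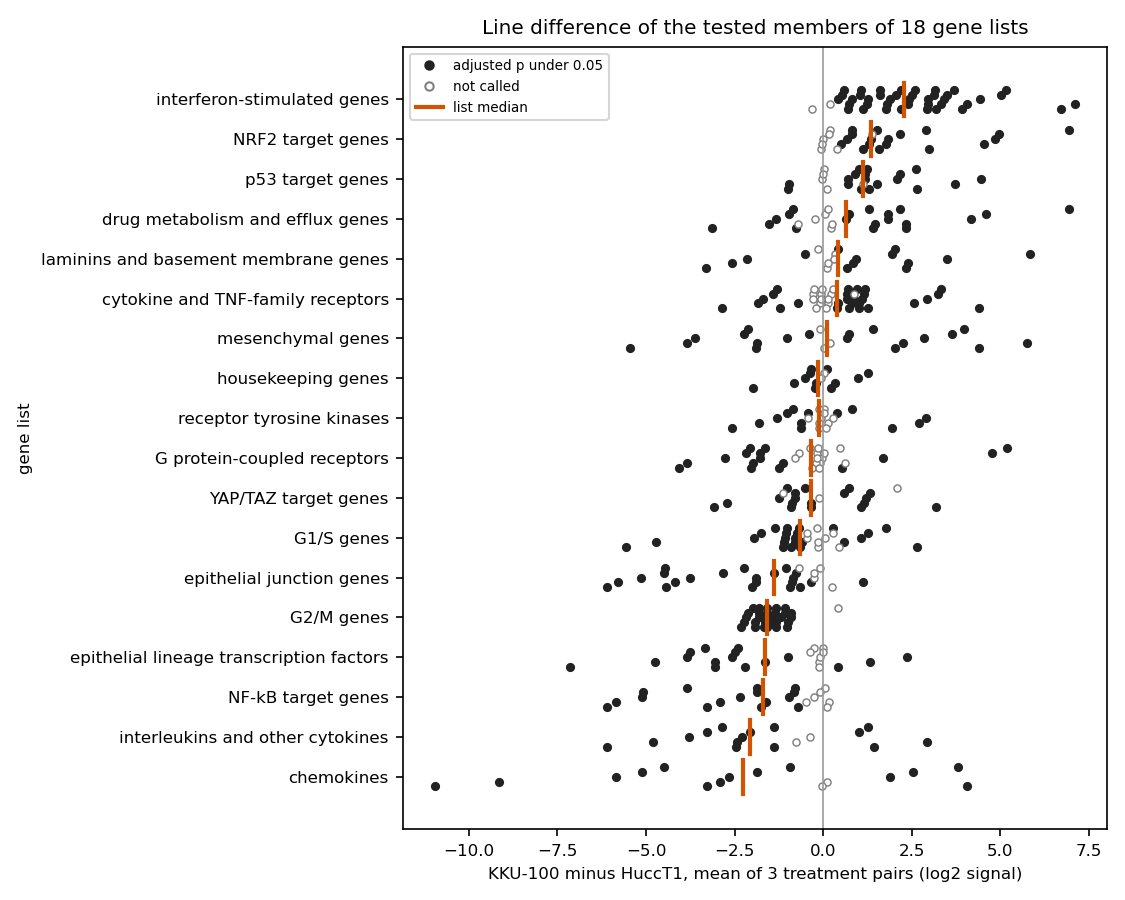
Difference between KKU-100 and HuccT1 (log2 signal, mean of 3 treatment pairs) for each tested member of 18 gene lists, with filled points for genes called by limma, open points for genes not called and a bar at the list median. Interferon-stimulated genes lie almost wholly to the right (median 2.29), G2/M genes lie to the left in a narrow band (median -1.59), and mesenchymal genes spread to both sides (median 0.11).

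Genes with held differences were unevenly placed along the genome, as a description without a test. On chromosome 19, 18.6% of 888 tested genes were higher and 5.18% lower, and on chromosome 16 these shares were 16.7% and 4.01%. On chromosome 11 the shares were 4.08% higher and 16.2% lower, and on chromosome X 12.6% and 21.7%. Over all genes tested they were 8.74% and 8.93%. In runs of 21 neighbouring tested genes, chosen after their values were seen, the highest medians were on chromosome 19, where the run from CADM4 to ZNF180 had 14 genes held higher and 0 held lower (median 1.88), and the run from ZNF582-DT to ZNF814 had 15 and 0 (median 1.63). The lowest medians were on chromosome X, where the run from ENOX2 to VGLL1 had 14 genes held lower and 0 held higher (median -1.59), and on chromosome 4 around the chemokines, where the run from AFP to CXCL10 had 10 held lower and 1 held higher (median -1.44). HPRT1, a purine salvage gene often used as a constant reference, had 1182, 1309 and 1208 in KKU-100 and 4936, 5001 and 4565 in HuccT1. ACTB had 17271, 16979 and 15989 in KKU-100 and 16369.5, 15363 and 14532 in HuccT1, 1.09-fold higher (limma adjusted p = 0.0171), a call that was lost without either low-dose or either high-dose array (adjusted p from 0.0855 to 0.109). GAPDH had 18351, 18554 and 17704 in KKU-100 and 17786, 17943 and 17781 in HuccT1 (limma adjusted p = 0.396). Some of the largest differences lay outside these lists. UCA1, a long noncoding RNA first described in urothelial cancer, had 24.3, 20.6 and 18.6 in KKU-100 and 4348, 5510.2 and 3806 in HuccT1 (difference -7.74 ± 0.16, limma adjusted p = 1.83e-05). MT1M, a metallothionein, had 9.54, 7.76 and 8.98 in KKU-100 and 1289, 3953 and 7973 in HuccT1, where the high-dose array was the highest. QPCT, glutaminyl cyclase, was 192-fold lower, and GNB4, a G protein beta subunit, was 134-fold higher by its strongest probe set, the other giving 1.33. Of 14 housekeeping genes tested, 5 were called higher and 7 lower, beside 27.6% and 26.1% of all genes tested. The difference held for TBP and HPRT1 alone, beside 17.7% of all genes in either direction.

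**Figure D5:**
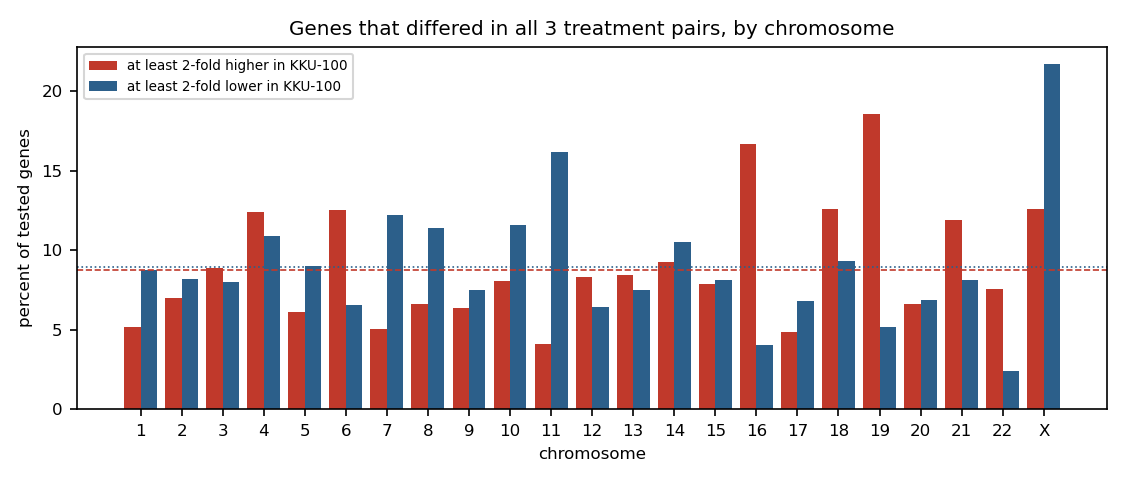
Percent of tested genes on each chromosome that were called and at least 2-fold higher (left bars) or lower (right bars) in KKU-100 than in HuccT1 in all 3 treatment pairs, with a dashed line at 8.74% and a dotted line at 8.93% for all genes tested. Chromosomes 19 and 16 have the tallest bars for higher genes (18.6% and 16.7%), and chromosomes X and 11 the tallest for lower genes (21.7% and 16.2%).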

How the data were processed

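Gene expression was measured on 6 Affymetrix arrays, 1 for each of 2 cell lines at each of 3 treatments (solvent control, low and high dose of regorafenib). For every probe set the file holds an intensity on the linear scale. The submitters' processing notes name MAS5, without a version, as the tool by which the authors derived these intensities. The study's methods also name log2 normalization in GeneSpring, and the deposited intensities were on the linear scale. No detection calls were used, so that a fold against a signal below the array median rests on that low signal. The log2 of each intensity was taken without further scaling. Of 54675 probe sets, 62 controls were left out and 27307 passed a filter at the 50th percentile of the mean level. Probe sets with 1 gene symbol (41091), several (1801) or none (11721) were told apart by the platform annotation, and only those with 1 were named, which gave 12833 tested genes. Line and treatment were the terms of a linear model fitted in R 4.3.3 with limma 3.58.1, whose eBayes step used a trend over signal level, with 2 residual degrees of freedom, and p-values were adjusted by Benjamini-Hochberg over all 27307 probe sets. The fit was tested on simulated data. Python 3.11.15, numpy 2.4.6 and pandas 2.3.3 were used for the rest. The number of arrays limits the precision, and the median moderated standard error of a difference was 0.13 on the log2 scale.

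Members and gene lists were chosen with earlier results of these data known. The genes named were the 10 with the largest held difference in each direction, without genes that only _x_at probe sets represent (such as LDHB), XIST, TSIX and Y-linked genes, up to 5 held members of each list in each direction, and a set of 30 lineage, study and receptor genes whatever their values, of which 28 were measured and 2 were not analysed here. Genes outside that rule, among them KRT8, KRT18, CXCL1, CXCL8, PPBP, NQO1, NFE2L2, KEAP1, IFNB1, ISG15, IFIT1, IRF9, MTAP and the NF-kB subunits, were chosen after their values were seen. Alternatives were other normalizations, filters, probe set choices and tests, and leaving out each array in turn.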

Additional observations from a re-analysis of the deposited data

Results flagged for a closer look

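SOX9 was singled out because its line difference pointed in opposite directions under different treatments. KKU-100 minus HuccT1 was -0.61 on the log2 scale in the solvent pair and 0.62 in the low-dose pair, each from 1 array per line. The difference between these pairs was not tested.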

How the results depend on the processing

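Leaving out each array in turn gave 4390 to 7768 probe sets and 2293 to 3893 genes called higher in KKU-100, and 4532 to 7206 probe sets and 2265 to 3519 genes called lower. The lowest counts came without a low-dose array. With treatment as a block, leaving out 1 array takes its whole pair out of the line difference. Leaving out either array of a treatment therefore gives the same difference and is not a separate check. Without probe sets ending in _x_at or _s_at, 4334 probe sets were higher and 3792 lower, with fewer probe sets tested. At 1.5-fold in every pair 2041 genes were higher and 1943 lower, and at 4-fold 365 and 415. At 2-fold the solvent pair alone gave 1722 and 1818 genes, and the high-dose pair alone gave 1692 higher. The median of the oncofetal and cancer-testis list turned to -0.12 with the level filter in each line and also without _x_at and _s_at probe sets, against 1.10. TAGLN turned to -0.02 without these probe sets, COL1A1 to -0.35 when each gene took the median of its probe sets, and NFE2L2 ran from -0.33 to 0.17 over the arrays left out, with -0.33 without either solvent array. The cause was not tested. Among list medians, that of G protein-coupled receptors was -0.16 with no filter, that of NRF2 targets 0.86 and that of YAP/TAZ targets -0.20 in the high-dose pair alone, and that of growth factors -0.79 without _x_at and _s_at probe sets. Over the 18 alternatives with a test, 4516 values of the 269 tested named genes kept their direction and side of the threshold, 62 lost the call, 11 gained it, 4 changed sign where the gene was called before or after the change, and 17 changed sign without a call in either. Fitted without the treatment block, which pairs the arrays, 3198 genes were higher and 3028 lower, and 7 named genes lost the call. The methods' t-test after Benjamini-Hochberg adjustment called 2603 genes higher and 2534 lower, and 22 named genes lost the call. The labels carry no replicate numbers beyond treatment.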
